A study of Homo sapiens with 15 samples.

Results

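The hypoxia factors and targets are 10 genes: the subunits of the hypoxia-inducible factors (HIF1A, EPAS1 and ARNT), the prolyl hydroxylases that sense oxygen for them (EGLN1 and EGLN3), and 5 genes that these factors are known to switch on (VEGFA, ADM, BNIP3, NDRG1 and CA9). They were chosen by name, as the rows whose gene symbol is on this list, in 2 tables of normalised read counts of K562 cells. Of the 10 genes, 8 were found among the 17769 genes with an identifier in the knockout table, and ADM and CA9 were not analysed there. All 10 were found among the 60510 genes of the resistance table, where 8 passed the filter on low values and ADM and CA9 did not. K562 is a human BCR-ABL1+ chronic myeloid leukemia line. The knockout table holds 9 libraries, 3 for each of the control with an empty vector (EV), the HSP90α-KO and the HSP90β-KO cells, all untreated. K562 cells that carry Cas9 were transduced by lentivirus and sorted by a fluorescent marker, with guide RNAs against HSP90AA1 or HSP90AB1 for the knockouts. Guide and clonal selection are named in a protocol that the labels share among all samples, and whether they hold for EV is not given separately in the sources used here. The resistance table holds 3 libraries of parental cells kept long term in DMSO and 3 of PUHr cells kept long term in rising amounts of PU-H71, an inhibitor that binds the N-terminal pocket of HSP90, and these were picked as clones. The effect of the knockout or of resistance and the effect of a selected clone cannot be told apart, and the p-values measure only the spread between these libraries.

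In normal oxygen, EGLN enzymes hydroxylate the HIF α subunits, the VHL ubiquitin ligase binds the hydroxylated protein, and the proteasome destroys it. When oxygen falls, the α subunit (HIF-1α from HIF1A or HIF-2α from EPAS1) escapes, pairs with ARNT and binds the hypoxia response elements of its target genes, which raise glucose use, blood vessel growth and mitophagy. HIF-1α is a known client of HSP90, and most of its control lies in protein turnover, so that mRNA, the only thing measured here, need not follow the protein. In blood formation HIF-2 is best known for switching on erythropoietin in the kidney.

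The core letters of the hypoxia response element, through which the factors act, are ACGTG or GCGTG. The stretches shown are those with a match to ACGTG. RefSeq promoters (GRCh38.p14) were matched for 8 of the 10 genes, and the 250 bases before each start were searched on both strands. ACGTG was found in 3 of them (BNIP3, EGLN1 and CA9), and 18.5% of 35116 promoters in the table hold it. GCGTG was found in HIF1A (1 of its 2 starts), EPAS1, ADM and BNIP3, and 32.2% of the promoters hold it. In BNIP3 the letters read ACGTG on both strands, so that the overlapping matches form CACGTG at 134 to 129 bases before the RefSeq start, which lies inside the gene as GENCODE annotates it. In EGLN1 the match lies 13 to 9 bases before the start, and in CA9 it lies on the opposite strand, 18 to 14 bases before the start. The sequences are printed 5′ to 3′ on the strand of the gene, with the match to ACGTG in capitals. The 4 matches to GCGTG in BNIP3 lie on the opposite strand, between 143 and 100 bases before the RefSeq start, and are left in lower case. The stretch of BNIP3 is chr10:131981968-131982173 (minus strand, 206 bases, ending where the GENCODE gene begins and so short of the RefSeq start), that of EGLN1 is chr1:231422288-231422537 (minus strand, 250 bases) and that of CA9 is chr9:35673898-35673927 (plus strand, the last 30 bases).
BNIP3: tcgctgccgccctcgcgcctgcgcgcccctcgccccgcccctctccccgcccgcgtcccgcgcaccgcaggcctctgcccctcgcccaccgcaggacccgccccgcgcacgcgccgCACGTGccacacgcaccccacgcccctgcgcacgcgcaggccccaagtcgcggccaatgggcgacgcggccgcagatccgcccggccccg
EGLN1: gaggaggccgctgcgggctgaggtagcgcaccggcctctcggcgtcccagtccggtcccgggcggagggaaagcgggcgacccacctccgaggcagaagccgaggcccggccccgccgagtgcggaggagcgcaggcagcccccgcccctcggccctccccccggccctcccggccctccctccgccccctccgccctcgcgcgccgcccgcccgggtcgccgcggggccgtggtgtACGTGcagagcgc
CA9: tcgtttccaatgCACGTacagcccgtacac
A match describes these letters only, and no factor binding was measured here.

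Depth was even, with 19594381 to 26216730 reads on genes per library, so that 1 read stood for 0.0381 to 0.0518 CPM (reads of a gene scaled to a common library size). The labels were checked on the targeted genes. HSP90AA1, which encodes HSP90α, averaged 704 CPM in EV, 90.4 CPM in HSP90α-KO and 1206 CPM in HSP90β-KO cells, and HSP90AB1, which encodes HSP90β, averaged 2806, 3307 and 1913 CPM. Both follow the knockout labels, and HSP90AB1 mRNA remained at a log2 fold change of -0.55 in its own knockout. In the resistance table neither gene was targeted. There HSP90AA1 averaged 1712 CPM in parental and 1568 CPM in PUHr cells (log2 fold change -0.13, adjusted p = 4.7e-05). HSP90AB1 averaged 4531 and 3847 CPM (-0.24, adjusted p = 1.9e-07). The study reports a copy number gain that covers HSP90AA1 in PUHr cells, and more HSP90α protein in them upon re-treatment. The mRNA values here run the other way and do not check the PUHr label. All 8 erythroid marker genes set for K562 lay above 3 reads in every group, and their summed level was 860 to 868 CPM in EV, 827 to 847 CPM in HSP90α-KO, 763 to 787 CPM in HSP90β-KO, 2485 to 2502 CPM in parental and 1798 to 1849 CPM in PUHr libraries. The sums of the T cell, B cell, fibroblast and endothelial markers reached at most 17.3, 7.18, 10.1 and 1.65 CPM, the epithelial list summed to 475 to 1127 CPM with KRT8 as its highest gene, and the part of these shifts in the results was not tested. In bulk RNA, fewer cells of a kind and less RNA per cell cannot be told apart.

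Per kilobase of annotated exon, VEGFA was the most abundant of the 8 genes in EV cells, at 34.4 ± 1.04 CPM per kb (SD, n = 3). ARNT followed at 11 ± 0.2, EPAS1 at 7.33 ± 0.216, BNIP3 at 6.24 ± 0.252 and HIF1A at 3.08 ± 0.192 CPM per kb. The low end was held by EGLN1 at 1.61 ± 0.22, EGLN3 at 0.748 ± 0.0974 and NDRG1 at 0.29 ± 0.0364 CPM per kb. Every step in this order was larger than the SDs of the neighbours, so that on this scale EPAS1 mRNA stood above HIF1A mRNA in these leukemia cells. In parental cells ARNT led at 11 ± 0.142 CPM per kb, with VEGFA at 10 ± 0.298, EPAS1 at 6.63 ± 0.209 and BNIP3 at 6.62 ± 0.091 CPM per kb. HIF1A at 3.74 ± 0.226 and EGLN3 at 3.65 ± 0.201 CPM per kb came next, followed by EGLN1 at 0.89 ± 0.0836 and NDRG1 at 0.531 ± 0.0537 CPM per kb. EPAS1 and BNIP3 did not differ beyond their spread in parental cells, nor did HIF1A and EGLN3. The length used joins all annotated exons of a gene, 14.43 kb for VEGFA and 6.45 kb for ARNT. Both orders depend on this choice, which the SDs do not cover. In CPM without division by length, VEGFA stood above ARNT in parental cells, at 145 against 70.6 CPM. The tables were normalised separately, so the orders are given side by side and no test was made between them.

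**Figure D1:**
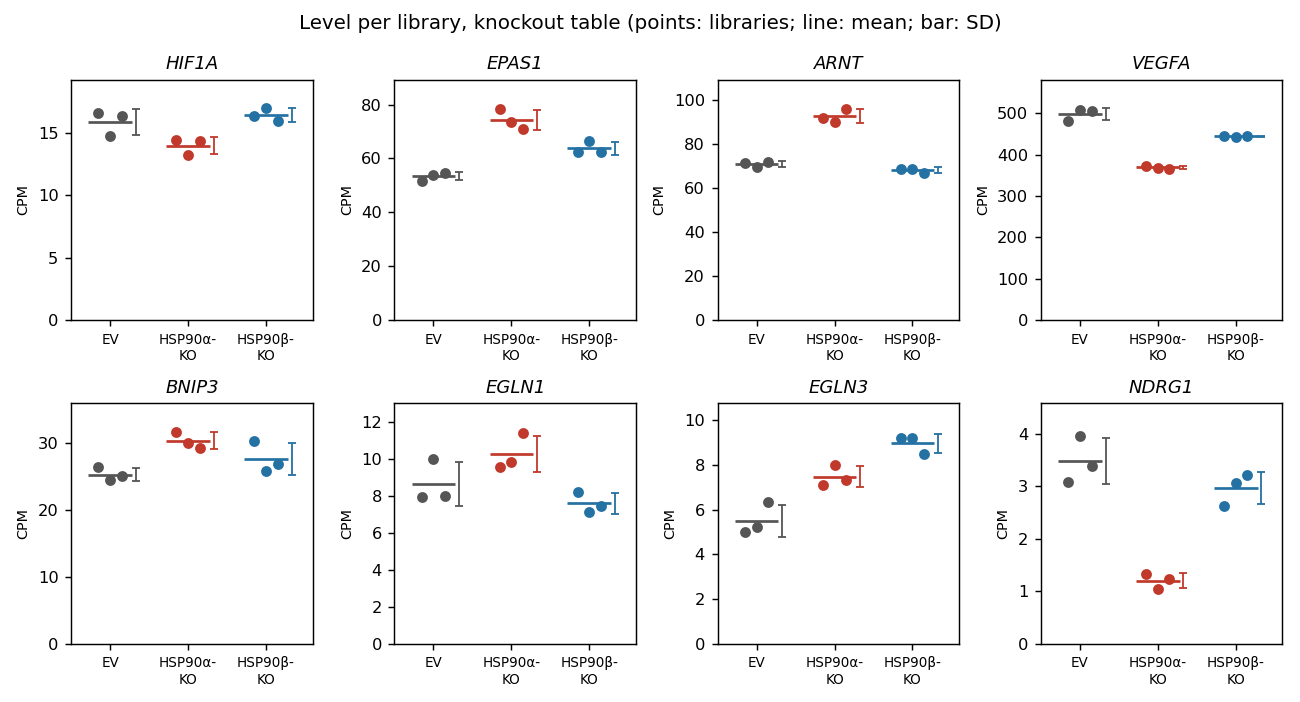
Level of the 8 hypoxia genes in CPM (vertical axes, each from 0) in the 3 EV, 3 HSP90α-KO and 3 HSP90β-KO libraries; points are libraries, horizontal lines are means and bars are SDs. EPAS1 and EGLN3 lie above EV in all 6 knockout libraries, ARNT is high and NDRG1 low in the HSP90α-KO libraries.

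HSP90α-KO cells differed from EV in all 8 genes tested, with small fold changes except in NDRG1. EPAS1, ARNT, BNIP3, EGLN1 and EGLN3 were higher and HIF1A, VEGFA and NDRG1 lower in limma at a Benjamini-Hochberg adjusted p under 0.05, taken over all 17039 genes tested. In this comparison 54.2% of all genes tested passed (27.5% higher and 26.6% lower), against 8 of these 8. The median log2 fold change of the 8 genes was 0.26, beside -0.01 over all genes, and their median size without sign was 0.408, beside 0.24. With a log2 fold change beyond 1 in either direction also required ("changed"), 1 of the 8 genes was left, NDRG1, where 10.3% of all genes were.

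In HSP90β-KO cells EPAS1 and EGLN3 were higher and VEGFA lower than in EV, and the other 5 genes missed the threshold. The background was 34.4% of all genes passing (17.2% higher and 17.2% lower), and 3 of the 8 genes passed. None of the 8 genes was changed, beside 4.48% of all genes. Their median log2 fold change was -0.00, beside 0.00 over all genes, and the median size was 0.173, beside 0.153. Both knockouts were compared with the same 3 EV libraries. Set against each other, HSP90α-KO and HSP90β-KO cells differed in 7 of the 8 genes, where 59.9% of all genes did.

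In PUHr cells HIF1A, EPAS1, VEGFA, EGLN1 and NDRG1 were higher and EGLN3 lower than in parental cells, so that 6 of the 8 genes tested passed. The background was 51.4% of 16503 genes (25.6% higher and 25.8% lower). NDRG1 was the 1 changed gene of the 8, beside 10.1% of all genes. The median log2 fold change of the 8 genes was 0.18, beside 0.00 over all genes, and the median size was 0.22, beside 0.206.

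**Figure D2:**
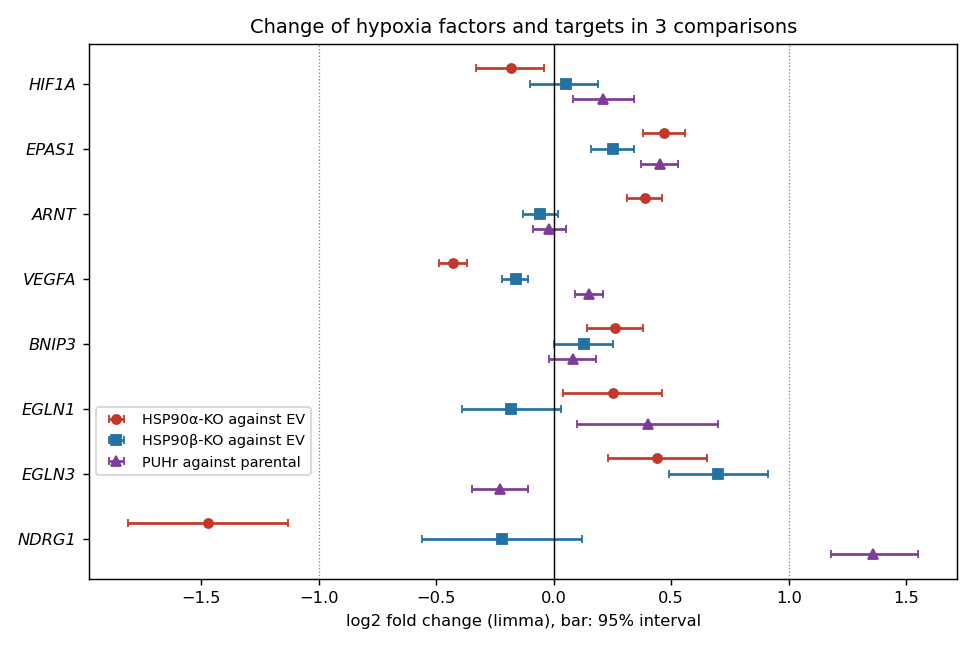
Log2 fold change (horizontal axis) of the 8 hypoxia genes tested in HSP90α-KO against EV (circles), HSP90β-KO against EV (squares) and PUHr against parental cells (triangles); bars are 95% intervals from limma and dotted lines mark a log2 fold change of 1 in either direction. NDRG1 lies at -1.47 in HSP90α-KO and at 1.36 in PUHr cells, and EPAS1 lies right of 0 in all 3 comparisons.

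Of the factor subunits, HIF1A, whose protein is the α subunit of HIF-1, stood at 16.6, 14.7 and 16.3 CPM in EV, at 14.4, 13.2 and 14.3 CPM in HSP90α-KO and at 16.3, 17.0 and 15.9 CPM in HSP90β-KO libraries. The HSP90α-KO libraries lay just below the lowest EV library, and the HSP90β-KO libraries overlapped with EV, with 1 of them above the highest EV library. Its log2 fold change was -0.18 (SE 0.07, adjusted p = 0.028) in HSP90α-KO and 0.05 (SE 0.07, adjusted p = 0.65, 95% interval -0.1 to 0.19) in HSP90β-KO cells. The HSP90α-KO call was lost without EV replicate 1 (adjusted p = 0.11), without EV replicate 3 (adjusted p = 0.095) and without HSP90α-KO replicate 2 (adjusted p = 0.13), and over its alternatives the adjusted p ranged from 0.01 to 0.13. Between the knockouts HIF1A was 1.17-fold lower in HSP90α-KO cells (log2 fold change -0.23, adjusted p = 0.006). In the resistance table it stood at 19.6, 18 and 20.2 CPM in parental and at 23.4, 21.5 and 22.1 CPM in PUHr libraries, without overlap. The log2 fold change there was 0.21 (SE 0.061, adjusted p = 0.0087), and it missed the threshold at adjusted p = 0.052 without parental replicate 2 (range over the alternatives 0.0019 to 0.052). HIF1A mRNA was therefore 1.14-fold lower in the HSP90α-KO and 1.16-fold higher in the PUHr libraries than in the control of each table, with 95% intervals of -0.33 to -0.04 and 0.08 to 0.34 on the log2 scale.

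EPAS1, the α subunit of HIF-2, was higher in each of the 3 comparisons. Its levels were 51.7, 53.9 and 54.7 CPM in EV, 78.4, 73.6 and 71.0 CPM in HSP90α-KO and 62.4, 66.4 and 62.4 CPM in HSP90β-KO libraries. The 3 groups did not overlap, with HSP90β-KO between the others. EPAS1 rose 1.39-fold in HSP90α-KO (log2 fold change 0.47, SE 0.044, adjusted p = 6.1e-10) and 1.19-fold in HSP90β-KO cells (log2 fold change 0.25, SE 0.044, adjusted p = 4.1e-05). The difference between the knockouts, 0.22 on the log2 scale, passed as well (adjusted p = 9.7e-05). In PUHr libraries EPAS1 reached 66.3, 65.0 and 66.8 CPM against 46.7, 49.7 and 48.7 CPM in parental libraries. This was a 1.37-fold rise without overlap (log2 fold change 0.45, SE 0.037, adjusted p = 1.0e-07), and these calls held in every alternative run. A share of 27.2% of genes in HSP90α-KO, 33.8% in HSP90β-KO and 25.5% in PUHr cells had a larger log2 fold change than EPAS1 in either direction.

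ARNT, the β subunit that both α subunits need, passed in HSP90α-KO cells and in neither of the other comparisons with a control. It stood at 71.5, 69.5 and 71.9 CPM in EV, at 91.8, 90.2 and 96.2 CPM in HSP90α-KO and at 68.9, 68.9 and 66.9 CPM in HSP90β-KO libraries. All HSP90α-KO libraries were far above the other 6, and the HSP90β-KO libraries lay slightly below EV. ARNT was 1.31-fold higher in HSP90α-KO cells (log2 fold change 0.39, SE 0.038, adjusted p = 2.1e-09) and did not pass in HSP90β-KO cells (-0.06, SE 0.038, adjusted p = 0.27, 95% interval -0.13 to 0.02). The difference between the knockouts was 0.44 on the log2 scale (adjusted p = 1.1e-10). Parental libraries at 71.6, 69.8 and 70.5 CPM and PUHr libraries at 69.0, 69.6 and 70.5 CPM overlapped. Their log2 fold change of -0.02 had a 95% interval of -0.09 to 0.05 (adjusted p = 0.66).

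In the knockout table the oxygen sensors had lower counts than the factor subunits and a wider spread relative to their means. In the resistance table this held for EGLN1 but not for EGLN3. EGLN1, which encodes PHD2, the main HIF prolyl hydroxylase, stood at 7.94, 10 and 8.0 CPM in EV, at 9.57, 9.84 and 11.4 CPM in HSP90α-KO and at 8.2, 7.13 and 7.44 CPM in HSP90β-KO libraries. EV replicate 2 lay among the HSP90α-KO libraries. The log2 fold change was 0.25 (SE 0.101, adjusted p = 0.039) in HSP90α-KO and -0.18 (SE 0.101, adjusted p = 0.17, 95% interval -0.39 to 0.03) in HSP90β-KO cells. The HSP90α-KO call was lost without EV replicate 1 (adjusted p = 0.15), without EV replicate 3 (0.16), without HSP90α-KO replicate 3 (0.19), after quantile normalization (0.053) and without the intensity trend (0.1), within a range of 0.0053 to 0.19 over the alternatives. The difference between the knockouts was firmer, at 0.43 on the log2 scale (adjusted p = 6.3e-04) with no overlap, and it passed in every alternative.

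EGLN1 in PUHr libraries was at 5.14, 7.78 and 6.36 CPM, and in parental libraries at 4.27, 5.08 and 5.02 CPM. The lowest PUHr library lay just above the highest parental one. The log2 fold change of 0.4 (SE 0.139, adjusted p = 0.026) did not pass without parental replicate 1 (adjusted p = 0.11), without PUHr replicate 2 (0.1), without PUHr replicate 3 (0.064) or without the intensity trend (0.1), within a range of 0.0027 to 0.11.

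EGLN3, which encodes PHD3, a hydroxylase that is itself a HIF target, stood at 4.99, 5.21 and 6.33 CPM in EV, at 7.08, 7.98 and 7.34 CPM in HSP90α-KO and at 9.2, 9.22 and 8.47 CPM in HSP90β-KO libraries. The 3 groups did not overlap, with HSP90β-KO highest. The rise was 1.35-fold in HSP90α-KO (log2 fold change 0.44, SE 0.103, adjusted p = 7.5e-04) and 1.62-fold in HSP90β-KO cells (log2 fold change 0.7, SE 0.103, adjusted p = 4.5e-06). EGLN3 had the largest shift of the 8 genes in HSP90β-KO cells, and 8.8% of all genes had a larger one. The difference between the knockouts (-0.26, adjusted p = 0.031) was lost without HSP90α-KO replicate 1 (adjusted p = 0.092) or 3 (0.062), without HSP90β-KO replicate 1 (0.089) or 2 (0.09) and after median centring (0.071), within a range of 0.018 to 0.092.

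EGLN3 went the other way in resistance, with 27.7, 27.7 and 25.1 CPM in parental and 21.9, 23.8 and 23.0 CPM in PUHr libraries, without overlap. The log2 fold change was -0.23 (SE 0.056, adjusted p = 0.0033). The annotated span of EGLN3 covers SPTSSA on the same strand, named here after its values were seen, which had 587 to 843 reads in the knockout and 626 to 800 reads in the resistance table. SPTSSA did not pass in HSP90α-KO (0.08, adjusted p = 0.22) or HSP90β-KO cells (-0.13, adjusted p = 0.064) and was lower in PUHr cells (-0.23, adjusted p = 0.0025). Whether reads were divided between these genes was not tested.

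**Figure D3:**
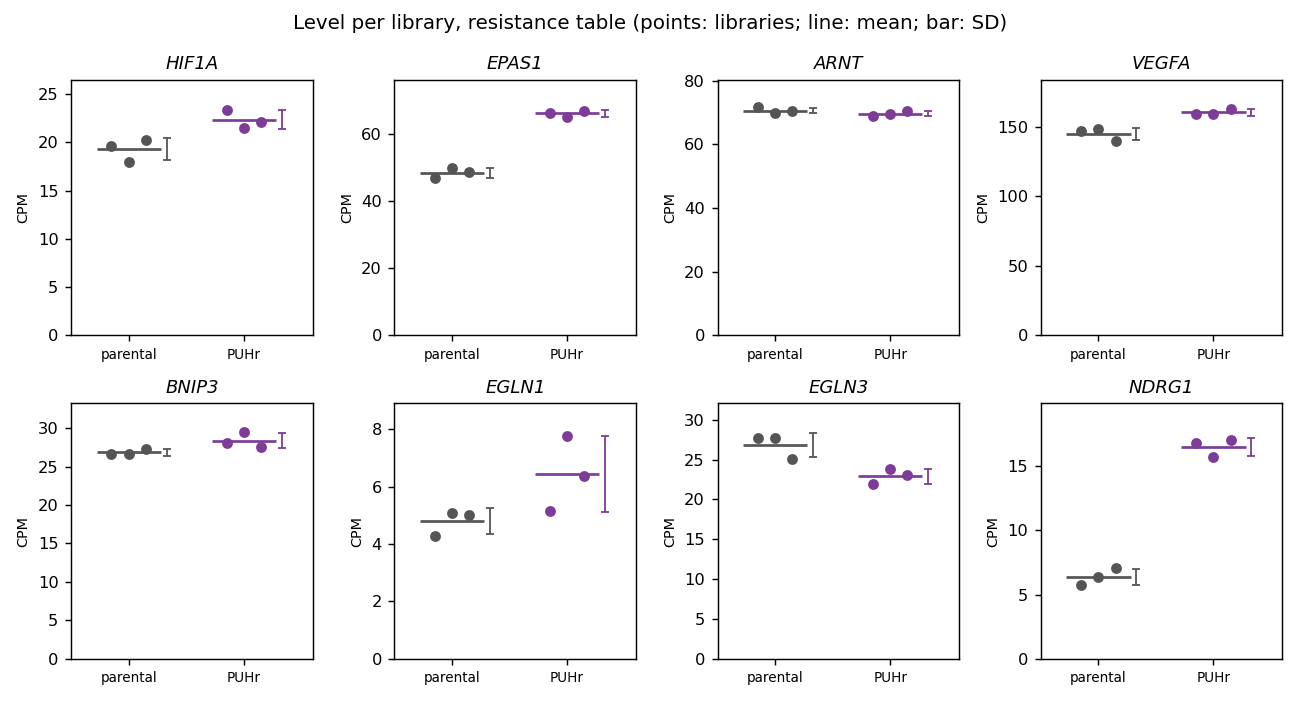
Level of the 8 hypoxia genes in CPM (vertical axes, each from 0) in the 3 parental and 3 PUHr libraries; points are libraries, horizontal lines are means and bars are SDs. NDRG1 lies at 15.7 to 17.0 CPM in PUHr against 5.75 to 7.04 CPM in parental libraries, and ARNT overlaps.

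Among the targets, VEGFA, the vascular growth factor induced by both HIF-1 and HIF-2, was the deepest counted gene of the set, with 2984 reads or more in each library. It stood at 480, 507 and 504 CPM in EV, at 373, 367 and 366 CPM in HSP90α-KO and at 444, 443 and 444 CPM in HSP90β-KO libraries. The 3 groups were separated and tight. VEGFA was 1.35-fold lower in HSP90α-KO (log2 fold change -0.43, SE 0.028, adjusted p = 6.0e-13) and 1.12-fold lower in HSP90β-KO cells (-0.16, SE 0.028, adjusted p = 3.9e-05). The knockouts differed by -0.27 on the log2 scale (adjusted p = 5.5e-09). In resistance VEGFA was slightly higher, at 159, 159 and 163 CPM in PUHr against 147, 148 and 140 CPM in parental libraries. This 1.11-fold difference (log2 fold change 0.15, SE 0.029, adjusted p = 5.9e-04) was without overlap. VEGFA mRNA thus fell in HSP90α-KO cells, in which EPAS1 and ARNT mRNA rose.

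BNIP3, a mitochondrial outer membrane protein that starts mitophagy, stood at 26.4, 24.4 and 25 CPM in EV, at 31.7, 30 and 29.2 CPM in HSP90α-KO and at 30.3, 25.8 and 26.8 CPM in HSP90β-KO libraries. HSP90α-KO lay above EV without overlap, and HSP90β-KO overlapped with both. BNIP3 was 1.2-fold higher in HSP90α-KO cells (log2 fold change 0.26, SE 0.06, adjusted p = 6.1e-04). In HSP90β-KO cells the log2 fold change of 0.13 missed the threshold (SE 0.06, adjusted p = 0.11, 95% interval 0.0 to 0.25), and HSP90β-KO replicate 1 was its highest library. The difference between the knockouts (0.13, adjusted p = 0.055) passed without that library (0.2, adjusted p = 0.008), without EV replicate 2 (0.13, adjusted p = 0.05 after rounding), without HSP90α-KO replicate 3 (0.16, adjusted p = 0.032), after quantile normalization (0.16, adjusted p = 0.037) or median centring (0.18, adjusted p = 0.011) and by voom (0.14, adjusted p = 0.039), within a range of 0.008 to 0.27. Parental libraries at 26.6, 26.6 and 27.3 CPM and PUHr libraries at 28, 29.5 and 27.6 CPM did not overlap but were close, and 0.08 on the log2 scale did not pass (SE 0.047, adjusted p = 0.18, 95% interval -0.02 to 0.18). Genes annotated opposite to BNIP3 held 2 to 21 reads per library, at most 3.52% of the reads of BNIP3.

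NDRG1, a stress-induced gene that HIF-1 switches on, showed the widest changes of the set, and these were opposite in the HSP90α-KO and PUHr comparisons. In EV libraries it stood at 3.09, 3.95 and 3.39 CPM (65, 82 and 89 reads), in HSP90α-KO libraries at 1.32, 1.04 and 1.23 CPM (27, 20 and 24 reads) and in HSP90β-KO libraries at 2.62, 3.07 and 3.21 CPM. HSP90α-KO lay below both other groups, and HSP90β-KO overlapped with EV. NDRG1 was 2.77-fold lower in HSP90α-KO cells (log2 fold change -1.47, SE 0.165, adjusted p = 2.4e-08), and -0.22 in HSP90β-KO cells did not pass (SE 0.165, adjusted p = 0.33, 95% interval -0.56 to 0.12). The knockouts differed by -1.25 (adjusted p = 2.9e-07). Its counts are low, and with 5 CPM added before taking logs the HSP90α-KO log2 fold change was -0.45 and still passed the adjusted p.

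PUHr libraries held NDRG1 at 16.8, 15.7 and 17.0 CPM, all above 5.75, 6.33 and 7.04 CPM in parental libraries. This was a 2.57-fold rise (log2 fold change 1.36, SE 0.086, adjusted p = 5.6e-09), or 0.92 with 5 CPM added. A share of 5.53% of genes in HSP90α-KO and 6.84% in PUHr cells had larger log2 fold changes in either direction. The difference between the EV and parental levels of NDRG1 was not tested because the tables were normalised separately.

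The remaining targets were at or near 0. ADM, the vasodilator peptide adrenomedullin, had 3, 1 and 1 reads in the parental libraries and 0, 0 and 2 in the PUHr libraries, at or below the limit of 3 reads, so no fold is given. CA9, a carbonic anhydrase of the cell surface and a sensitive marker of HIF-1 activity, had 0 reads in each of the 6 libraries, which allows up to 0.12 to 0.141 CPM. Neither gene was detectable at this depth as different between the groups. ARHGEF39, annotated on the opposite strand over CA9 and named after its values were seen, had 445 to 557 reads in these libraries, and the strand setting of the counting is not given in the sources used here.

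The wider pathway was read from 90 genes in 8 lists of known members, of which 75 were tested in the knockout and 77 in the resistance table. In HSP90α-KO cells 31 were higher, 19 lower and 25 did not pass (66.7% passed, beside the 54.2% of all genes), and their log2 fold changes had a median of 0.05. In HSP90β-KO cells 21 were higher, 13 lower and 41 did not pass (45.3%, beside 34.4%), with a median of 0.01. In PUHr cells 24 were higher, 22 lower and 31 did not pass (59.7%, beside 51.4%), with a median of 0.03. Genes of the pathway moved in both directions in each comparison. Of those tested, 5 in HSP90α-KO, 3 in HSP90β-KO and 6 in PUHr cells met the filter on low values in fewer than 3 libraries of a group compared, and 4, 0 and 4 of these passed. The pooled counts and shares in HSP90α-KO and PUHr cells include such genes and are not read as a result. The 8 hypoxia genes met this filter in every library.

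The oxygen sensing and HIF turnover list held 11 genes, all tested, and 4 passed in HSP90α-KO (36.4%, beside 54.2% of all genes), 3 in HSP90β-KO (27.3%, beside 34.4%) and 3 in PUHr cells (27.3%, beside 51.4%). VHL, the ubiquitin ligase subunit that recognises hydroxylated HIF, did not pass in any of them, with log2 fold changes of -0.02 in HSP90α-KO (95% interval -0.1 to 0.06), -0.06 in HSP90β-KO (-0.14 to 0.02) and -0.02 in PUHr cells (-0.1 to 0.05). EGLN2, the third HIF prolyl hydroxylase, did not pass in HSP90α-KO cells (-0.13, adjusted p = 0.14), was higher in HSP90β-KO cells (0.24, adjusted p = 0.011) and lower in PUHr cells (-0.2, adjusted p = 0.015). HIF1AN, the asparagine hydroxylase that blocks binding of the coactivator p300, was 1.5-fold higher in HSP90α-KO cells, at 84.2, 87.2 and 87.6 CPM against 59.4, 55.5 and 58.1 CPM in EV (log2 fold change 0.58, adjusted p = 1.5e-12). It did not pass in HSP90β-KO (-0.01, adjusted p = 0.91) or PUHr cells (0.04, adjusted p = 0.32). Of the partners and coregulators, 3 of 5 were tested, and 1, 1 and 2 of them passed in the 3 comparisons.

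Of the 10 angiogenic ligands and receptors, 4 were tested in the knockout table, and NRP2 met the filter on low values there without the HSP90α-KO libraries, so no count of the list is read. Named after their values were seen, the ligand ANGPT1 had a log2 fold change of -0.27 in HSP90α-KO (adjusted p = 3.5e-06) and 0.26 in HSP90β-KO cells (adjusted p = 1.1e-05), and the ligand VEGFB had -0.08 (adjusted p = 0.17) and -0.13 (adjusted p = 0.042). In HSP90α-KO cells FLT1, a VEGF receptor, was at 2.34, 2.54 and 4.06 CPM against 0.761, 0.578 and 0.762 CPM in EV (log2 fold change 1.92, SE 0.245, adjusted p = 2.1e-07). NRP2, a co-receptor of VEGF and semaphorins, had 17, 23 and 34 reads in EV, 1, 1 and 0 in HSP90α-KO and 182, 195 and 229 in HSP90β-KO libraries. It was thus at least 7.06-fold lower in HSP90α-KO cells, and higher by 2.94 on the log2 scale in HSP90β-KO cells (SE 0.243, adjusted p = 1.9e-10). In PUHr cells 6 genes of the list were tested, and NRP2, KDR and NRP1 met the filter on low values only with the PUHr libraries in which they were high, so no count or median of the list is read and their values are given with no call. The other 3 were FLT1 at a log2 fold change of 0.52 (adjusted p = 3.7e-05) and the ligands VEGFB at 0.25 (adjusted p = 2.9e-05) and ANGPT1 at 0.00 (adjusted p = 0.93). NRP2 was at 5.34, 5.06 and 5.92 CPM against 0.0845, 0.21 and 0.281 CPM in parental libraries (log2 fold change 4.38, SE 0.26). KDR, the main VEGF receptor of endothelium, had 36, 43 and 37 reads in PUHr against 2, 3 and 3 in parental libraries and was at least 12.4-fold higher. NRP1, the other neuropilin, had a log2 fold change of 1.34 (SE 0.259). The summed endothelial markers were 1.33 to 1.65 CPM in PUHr and 0.141 to 0.423 CPM in parental libraries, and 0.83 to 1.24 CPM in HSP90α-KO and 0.0762 to 0.19 CPM in EV libraries, where PECAM1 was the 1 marker of the list analysed. CDH5, the cadherin of endothelium, had 0 reads in the parental and PUHr libraries, and the part of the list in these receptors was not tested. The adrenomedullin receptor list had no tested gene of 4.

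**Figure D4:**
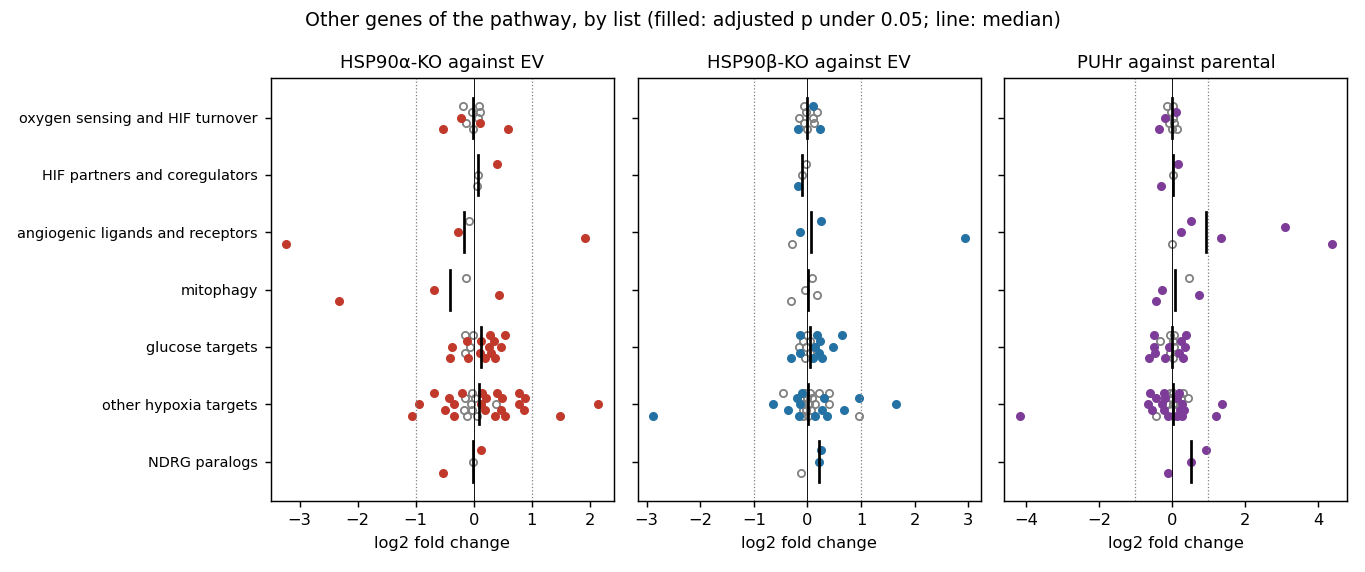
Log2 fold change (horizontal axes) of the tested genes of 7 pathway lists in the 3 comparisons; each point is a gene, filled where the adjusted p was under 0.05, black lines are list medians and dotted lines mark a log2 fold change of 1 in either direction. Most points lie within 1 of 0, and angiogenic receptors and CA12 are among the widest. Medians and fills rest on all tested genes, also where the text reads no count, median or call.

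Of 4 mitophagy genes, none passed in HSP90β-KO cells, beside 34.4% of all genes, and no count is read in the other comparisons, where 1 of the 4 met the filter on low values without all groups. BNIP3L, the close paralog of BNIP3 that clears mitochondria from maturing red cells, was named after its values were seen. Its levels were 132, 127 and 136 CPM in EV, 81.5, 79.8 and 82.3 CPM in HSP90α-KO and 144, 136 and 136 CPM in HSP90β-KO libraries, and it fell 1.62-fold in HSP90α-KO cells (log2 fold change -0.69, SE 0.036, adjusted p = 5.0e-15). In PUHr libraries it was at 123, 124 and 124 CPM against 73.0, 74.8 and 72.7 CPM in parental libraries (log2 fold change 0.75, SE 0.029, adjusted p = 2.8e-11). BNIP3L therefore fell in HSP90α-KO cells, in which BNIP3 rose, and had the same signs as NDRG1 in HSP90α-KO and PUHr cells. Of the 3 NDRG paralogs, 1 was higher and 1 lower in HSP90α-KO, 2 were higher and 0 lower in HSP90β-KO, and 2 were higher and 1 lower in PUHr cells, where 54.2%, 34.4% and 51.4% of all genes passed.

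Of the 18 glucose targets, which carry sugar uptake and glycolysis, 10 were higher, 4 lower and 4 did not pass in HSP90α-KO cells, and their median shift was 0.11 on the log2 scale. The counts were 8, 3 and 7 in HSP90β-KO cells (median 0.04) and 5, 6 and 7 in PUHr cells (median -0.00), and none of the 18 was changed in any of these comparisons, where 10.3%, 4.48% and 10.1% of all genes were. The shares that passed were 77.8%, 61.1% and 61.1%, beside 54.2%, 34.4% and 51.4% of all genes. Of the other hypoxia targets, 32 of 35 were tested, and in HSP90β-KO cells 7 were higher and 7 lower (43.8% passed, beside 34.4% of all genes). No count of this list is read in HSP90α-KO and PUHr cells, where genes that passed met the filter on low values without all groups.

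Changed genes of that last list are given by comparison. In HSP90α-KO cells EFNA3, an ephrin ligand, fell by 1.07 on the log2 scale (SE 0.188, adjusted p = 2.8e-05), and TMEM45A went from 9, 1 and 0 reads in EV to 23, 13 and 10 reads in HSP90α-KO libraries, through which it met the filter on low values, so its call is not read as a result. LOXL2, a lysyl oxidase that crosslinks collagen, rose in HSP90β-KO cells to 11.6, 12.1 and 12.6 CPM from 3.09, 4.34 and 4.04 CPM (log2 fold change 1.65, SE 0.116, adjusted p = 8.5e-12). It also rose in PUHr cells, to 7.71, 9.2 and 8.54 CPM from 3.17, 3.15 and 3.33 CPM (1.37, SE 0.107, adjusted p = 5.9e-08). CA12, a carbonic anhydrase related to CA9, fell in HSP90β-KO cells and rose in HSP90α-KO cells, and in PUHr cells it met the filter on low values through the parental libraries. It had 18, 17 and 17 reads in HSP90β-KO against 140, 123 and 151 reads in EV libraries (log2 fold change -2.88, SE 0.132, adjusted p = 1.7e-15), and 0, 2 and 0 reads in PUHr against 50, 48 and 31 reads in parental libraries, at least 14.8-fold lower, with no call read. In HSP90α-KO libraries it had 225, 189 and 206 reads (log2 fold change 0.77, SE 0.132, adjusted p = 2.1e-05), so that the knockouts stood on either side of EV. ANGPTL4, an inhibitor of lipoprotein lipase, rose in PUHr cells by 1.22 (SE 0.187, adjusted p = 6.9e-05).

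Positions were taken from GENCODE v44 (GRCh38) by the identifiers of the files. HIF1A (ENSG00000100644) lies at chr14:61695513-61748259 on the plus strand, EPAS1 (ENSG00000116016) at chr2:46293667-46386697 on the plus strand and ARNT (ENSG00000143437) at chr1:150809713-150876708 on the minus strand. VEGFA (ENSG00000112715) lies at chr6:43770184-43786487 on the plus strand, on the same chromosome as HSP90AB1 at chr6:44246166-44253888. BNIP3 (ENSG00000176171) lies at chr10:131967684-131981967, EGLN1 (ENSG00000135766) at chr1:231363751-231422287, EGLN3 (ENSG00000129521) at chr14:33924227-34462774 and NDRG1 (ENSG00000104419) at chr8:133237175-133302022, all on the minus strand. ADM (ENSG00000148926) lies at chr11:10305073-10307397 and CA9 (ENSG00000107159) at chr9:35673928-35681159, both on the plus strand. Each gene was set beside the 15 tested genes on either side of it, to show whether the genes around it moved as well.

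BNIP3 lay in a region that was higher as a whole in HSP90α-KO cells. Its 30 neighbours had a median log2 fold change of 0.62, with 28 of 30 above 0, and 24 of 30 lay above BNIP3 itself at 0.26. HIF1AN, elsewhere on chromosome 10, had 30 neighbours with a median of 0.61, 28 of them above 0, and lay in their middle at 0.58. For the other 7 tested genes of the set the neighbour medians in HSP90α-KO cells were between -0.08 and 0.11. ARNT and EGLN3 each lay above 29 of their 30 neighbours, EPAS1 above 24, VEGFA below 25 and NDRG1 below 29. The part of the region in the rise of BNIP3 and HIF1AN was not tested.

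In HSP90β-KO cells the neighbours of EGLN1 had a median of -0.28, with 6 of 30 above 0, and EGLN1 at -0.18 lay among them. Between the knockouts these neighbours had a median of 0.31, with 21 of 30 above 0 and 12 above EGLN1 at 0.43. EPAS1 lay above 29 and EGLN3 above all 30 of their neighbours, and VEGFA at -0.16 was below 21 of 30. In PUHr cells the region of ARNT was low, with a median of -0.24 and 3 of 30 neighbours above 0, while ARNT itself was at -0.02 and above 27 of them. NDRG1 lay above 28, EPAS1 above 26 and VEGFA above 23 of their 30 neighbours, and EGLN3 lay below 27.

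**Figure D5:**
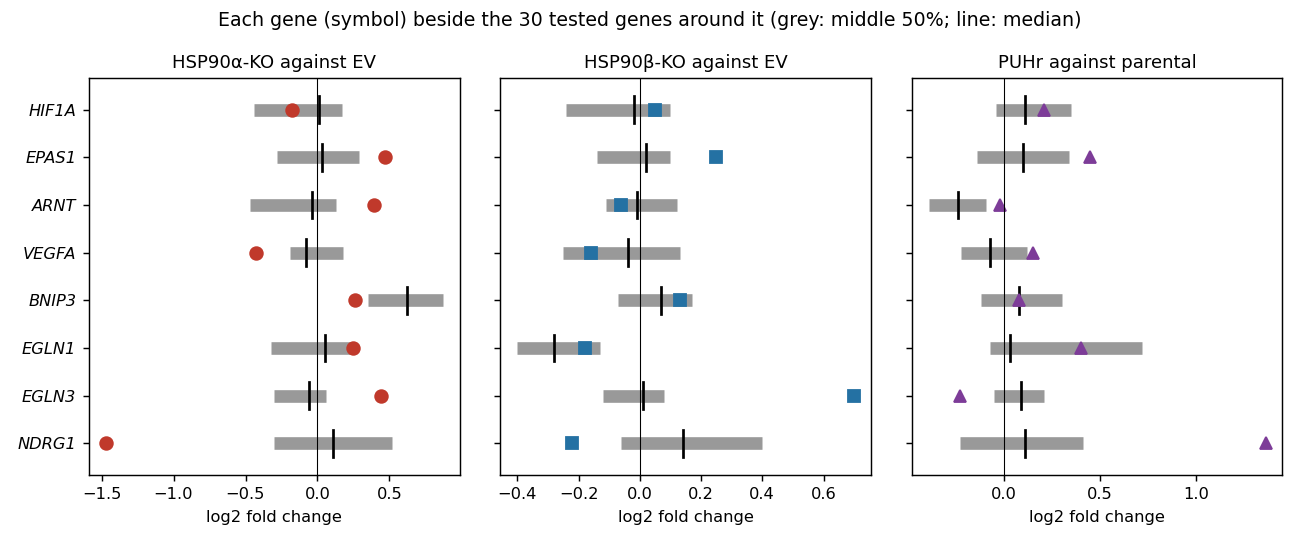
Log2 fold change (horizontal axes) of each hypoxia gene (coloured symbol) beside the 30 tested genes around it on its chromosome (grey bar, middle 50%; black line, median) in the 3 comparisons. The neighbours of BNIP3 in HSP90α-KO cells centre on 0.62, and NDRG1 stands apart from its neighbours in HSP90α-KO and PUHr cells.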

How the data were processed

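Poly(A) RNA of 15 K562 libraries was sequenced as single reads with a stranded kit. Per the submitters' notes and the study's methods, the authors trimmed adapters, aligned reads to GRCh38 (hg38) with STAR, counted them with featureCounts and normalised them with edgeR; the strand setting is not given in the sources used here. Each deposited value is a log2 of CPM, in which library sizes had been evened out, with a prior count of about 2, and whole reads were recovered from them within 0.0013 reads. Rows without an identifier (30 and 114 rows, 0.027 to 0.036% of reads) were left out. Genes at log2 CPM of -1 or more in 3 libraries were tested in each table by limma 3.58.1 (R 4.3.3) with an intensity trend on the deposited log2 values, 1 fit per table, and p-values were adjusted by Benjamini-Hochberg over all genes tested. "Passed" means adjusted p under 0.05, and "changed" also a log2 fold change beyond 1. Folds were taken from the log2 differences. CPM per library come from recovered reads, without the prior count. The script was tested on simulated data. Named genes are the 10 members, HSP90AA1, HSP90AB1, VHL, EGLN2, HIF1AN and, per list and comparison, up to 4 changed genes with separated libraries, and some genes that this rule takes are counted but not reported here by name. Members and lists were chosen with earlier results of these data known. Alternatives were other filters, pseudocounts, scalings, variance models and fits, and leaving out each library. Intervals and limits on 0 reads cover counting error only where they rest on reads.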

Additional observations from a re-analysis of the deposited data

Results flagged for a closer look

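For 3 genes the effects of the knockouts against EV differed by a test of the difference itself, which is the limma comparison of HSP90α-KO with HSP90β-KO cells, while the signs of the 2 effects were opposite. For HIF1A the difference was -0.23 on the log2 scale (adjusted p = 0.006). For ARNT it was 0.44 (adjusted p = 1.1e-10). For EGLN1 it was 0.43 (adjusted p = 6.3e-04), where the 30 tested genes around it had a median of 0.31, with 21 above 0 and 12 above EGLN1, and the part of this region was not tested. The HSP90β-KO effects of these genes did not pass on their own, so the signs of these effects are not established. The HSP90α-KO calls against EV were lost in 3 of 20 alternatives for HIF1A and in 6 of 20 for EGLN1.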

How the results depend on the processing

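Over the alternatives for the log2 fold changes of the 8 members in 4 comparisons, 582 values kept their side of the threshold, 19 became weaker, 7 became stronger and 0 reversed. A change of sign was counted as reversed only where the main run or the alternative passed. HIF1A in HSP90β-KO cells, which passed in neither, went from 0.05 to as low as -0.0 with a library left out. With 5 CPM added, no member was changed in HSP90α-KO (0) or PUHr cells (0), and the changed pathway genes went from 6 to 0 in HSP90α-KO, from 3 to 1 in HSP90β-KO and from 6 to 1 in PUHr cells. With 1 CPM added, 2 were left in HSP90α-KO cells. A filter at mean log2 CPM of 1 left 1 in HSP90α-KO and 2 in PUHr cells, since fewer genes were tested. A voom fit of the recovered reads gave 5 in HSP90β-KO cells, where leaving out EV replicate 1 also gave 5, and the cause was not tested. Leaving out 1 library at a time, 6 to 8 members passed in HSP90α-KO, 3 to 3 in HSP90β-KO, 6 to 8 between the knockouts and 5 to 6 in PUHr cells. Changed members stayed at 1 to 1, 0 to 0 and 1 to 1, and changed pathway genes ranged from 6 to 8, 3 to 5 and 4 to 6. Libraries with the same replicate number did not deviate together (r from -0.0481 to 0.031 in the knockout and 0.00675 to 0.0449 in the resistance table), so they share only a number. With the replicate block 7 members passed in HSP90α-KO (EGLN1 at adjusted p = 0.053), 3 in HSP90β-KO, 8 between the knockouts (BNIP3 at 0.038) and 6 in PUHr cells. Other scalings moved the median of all genes by 0.04 at most. Depth limits ADM and CA9, which lie at or under 3 reads, and the low counts of NDRG1 make its fold change depend on the pseudocount.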
